A study of Mus musculus with 12 samples.

Results

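The circRNAs described here are those that the study's list of differentially expressed circRNAs types as antisense or intergenic. There were 40 of them among 903 distinct listed circRNAs and 14236 circRNA probes on the array, 20 of each type. A listed circRNA was tied to its probe by its mean over the 12 arrays and its differences from sham, which were used for nothing else. All 903 found exactly 1 probe. Entry in the list needed a difference from sham of at least 2 log2 units with an adjusted p of at most 0.05, so the differences from sham below chose the members and are given as a description without a test.

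The blood of male Balb/c mice was drawn by cardiac puncture from sham-operated animals and after middle cerebral artery occlusion (MCAO, the blocking of a large brain artery with a coated filament) for 5 min, 3 h or 24 h, with 3 arrays in each of the 4 groups. The mice carried no transgene or deletion. The sample labels give an age of 8 weeks and the methods an older age. Sham mice went through the same surgery under isoflurane without occlusion. The sample labels place every sham array at 0 h, so no sham group was matched in time to 3 h or 24 h. Occlusion and time since surgery therefore cannot be told apart in the differences from sham. All RNA was whole-blood RNA treated with RNase R, which digests linear RNA, and it was hybridised in 1 colour. The files name no gene, so markers of blood cells could not be read, and in whole blood fewer cells of a type and less RNA per cell cannot be told apart.

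A circular RNA forms when the spliceosome joins a downstream splice donor to an upstream acceptor, and the closed ring resists exonucleases. Most circular RNAs carry exons of the gene they come from. An antisense circRNA is read from the strand opposite to an annotated gene, and an intergenic one from a place where the annotation in use holds no gene on that strand. Both labels depend on that annotation. In the gene set used below, 11 intergenic and 3 antisense circles overlapped a gene of their own strand. The array probes lie on the back-splice junction. Their signal does not measure the linear RNA of the gene at the same place, and a gene named here marks a position and not a measured transcript.

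The arrays lay on 2 slides. Slide 1 held sham, 5 min and replicates 1 and 2 of 3 h, and slide 2 held replicate 3 of 3 h and all of 24 h, so 24 h and sham shared no slide. Negative control spots had medians of 25 to 27 on slide 1 and 83.5 to 101 on slide 2, and the part of this in the differences at 24 h was not tested. Slide 2 values (the mean of 24 h minus replicate 3 of 3 h) are therefore given for the members described singly and as ranges for the others. They rest on 1 array of 3 h and hold no sham array. All 40 circRNAs passed the limit on dim probes, with no saturated and no outlier spot among them, and 37 were well above background on every array. The exceptions were mmu_circRNA_018441 and mmu_circRNA_19780 (each not above background on 1 array of 5 min) and mmu_circRNA_40444 (above background on 1 array of sham, none of 5 min and 3 each of 3 h and 24 h).

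Placed on the RefSeq genes of GRCm38.p6 (the mm10 build of the list), all 20 antisense circRNAs overlapped a gene. For 14 of them a gene on the opposite strand was found. For 4 (those in Auts2, Ptprb, Cntnap5c and Manf) the annotation used here gave no strand for the gene. mmu_circRNA_19472 and mmu_circRNA_27181 overlapped a long noncoding RNA gene of their own strand, Gm39066 and Gm30363. mmu_circRNA_19472 also covered Olfr486, for which no strand was given. Among the 14, mmu_circRNA_22146 overlapped 3282 bases of the opposite-strand 4930407I19Rik and 24259 bases of 1700023F02Rik, a gene of its own strand. The 20 antisense circRNAs lay on 12 chromosomes, 14 on the plus and 6 on the minus strand.

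The intergenic label fitted the same gene set less well. Of the 20 intergenic circRNAs, 9 lay outside every RefSeq gene and 11 overlapped a gene on their own strand. Of these 11, 7 lay wholly inside it: mmu_circRNA_26316 and mmu_circRNA_26317 in Gm272, mmu_circRNA_29750 in Gramd1c, mmu_circRNA_35606 in Wdr49, mmu_circRNA_35656 in Dchs2, mmu_circRNA_43806 in Muc16 and mmu_circRNA_24679 in the noncoding gene Gm33037. The other 4 crossed an end of Gm30319 (mmu_circRNA_34199), Gm42260 (mmu_circRNA_36544), Gm31698 (mmu_circRNA_44100) or Gm46102 and Cntn5 (mmu_circRNA_43751). They are called intergenic below because the list does.

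Antisense circles were short. Their genomic span had a median of 1323 bases (73 to 29367), against 6947 (288 to 63038) for the intergenic ones and 12235.5 for the 664 exonic ones in the same list. A span of at most 300 bases was found in 7 of 20 antisense circRNAs (35.0%), in 1 of 20 intergenic (5.0%), 8 of 60 intronic (13.3%), 13 of 139 sense-overlapping (9.4%) and 11 of 664 exonic circRNAs (1.7%). The span counts introns where the circle has any, so it is an upper bound of the circle's length. These shares describe a list chosen by differential expression.

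**Figure D1:**
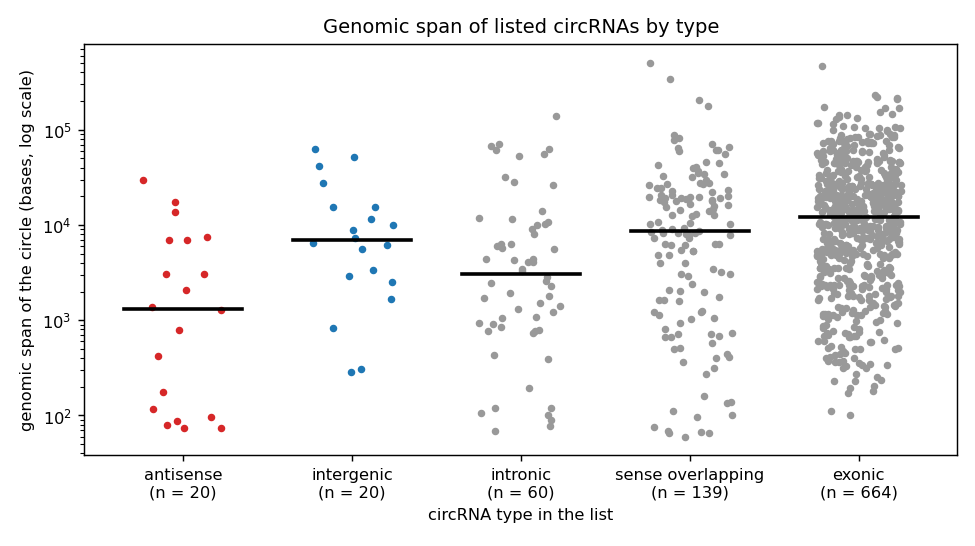
Genomic span of each listed circRNA (log axis, bases) by type, with points for circRNAs and a bar for the median. The antisense type holds 7 circles of 73 to 177 bases and a median of 1323 bases, against 12235.5 for exonic circRNAs.

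Relative to sham, the antisense circRNAs were higher at 24 h without exception and most intergenic ones were higher too. The median difference of the 20 antisense circRNAs went from 0.71 log2 units at 5 min over 1.64 at 3 h to 2.51 at 24 h. For the 20 intergenic ones it was 0.74, 1.26 and 2.56. Over all 10678 circRNA probes tested the medians were 0.10, -0.12 and -0.18. The median climbed in the other types of the list too. The values were 0.39, 0.66 and 2.01 for exonic, 0.59, 1.03 and 2.31 for intronic and 0.40, 0.59 and 2.02 for sense-overlapping circRNAs. At 24 h these types held 356 higher and 307 lower exonic, 37 and 23 intronic, and 76 and 63 sense-overlapping circRNAs. Their medians therefore mix both directions and do not give a typical rise. At 24 h all 20 antisense and 16 of 20 intergenic circRNAs were higher than sham, and 4 intergenic ones were lower. Of the 862 other listed circRNAs tested, 469 (54.4%) were higher at 24 h.

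The numbers that passed limma with Benjamini-Hochberg adjustment over all probes were 2 of 40 at 5 min (5.26% of all probes tested), 21 at 3 h (4.24%) and 38 at 24 h (31.8%). These counts restate the choice of members. All 3 arrays lay beyond all sham arrays on the upper side for 15 circRNAs at 5 min (23.4% of all probes), 33 at 3 h (13.7%) and 36 at 24 h (19.5%). Group means stood in the order sham, 5 min, 3 h, 24 h from low to high for 30 of the 40 (18 antisense and 12 intergenic), for 43.4% of the other listed circRNAs and for 9.36% of all probes. That order requires 24 h above sham, so these shares also follow the direction of listing. Among circRNAs higher than sham at 24 h, it held for 30 of 36 members and 374 of 469 other listed ones. The median difference at 5 min leaned on 1 array, since without replicate 1 of 5 min it was 0.32 for the antisense and 0.56 for the intergenic circRNAs. It also moved with the background correction, to 0.43 and 0.48 without subtraction and to 0.38 and 0.47 with normexp at offset 50.

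**Figure D2:**
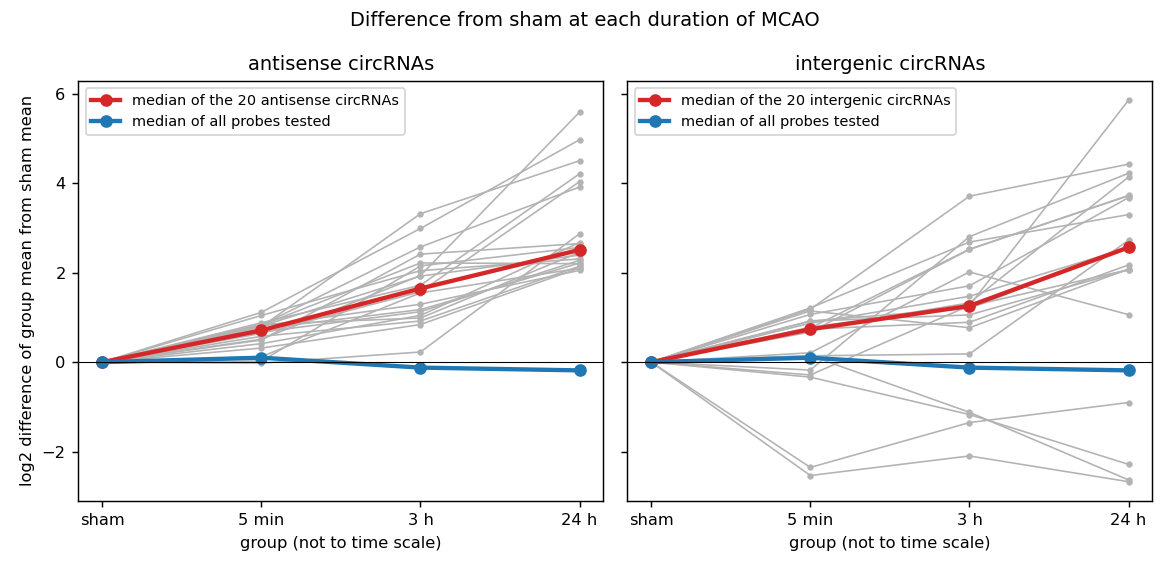
Difference of each group mean from the sham mean (log2) for every antisense (left) and intergenic circRNA (right), grey lines, with the median of the type in red and the median of all probes tested in blue. Both red lines climb from 5 min to 24 h (to 2.51 and 2.56) while the blue line runs from 0.10 to -0.18.

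The list holds 2 of these circRNAs at 5 min, 14 at 3 h and 38 at 24 h. Listed at 24 h alone were 25, at 3 h and 24 h 12, at all 3 times mmu_circRNA_26316, at 5 min alone mmu_circRNA_29750 and at 3 h alone mmu_circRNA_38639. Nearest to the limit from inside were mmu_circRNA_38639 at 3 h (2.01) and mmu_circRNA_000113 at 24 h (2.05). Nearest from outside were mmu_circRNA_45047 at 3 h (1.93) and mmu_circRNA_38639 at 24 h (1.06).

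**Figure D3:**
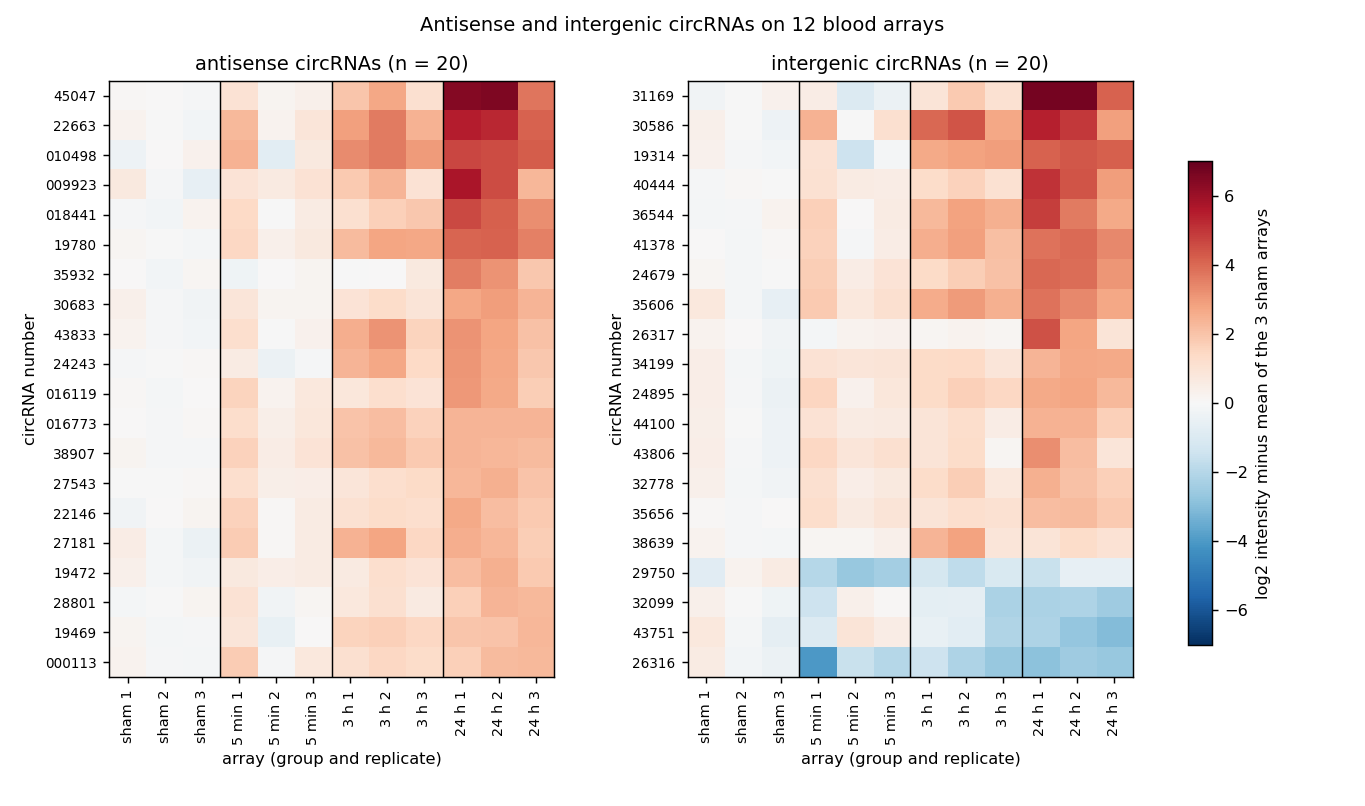
Log2 intensity of each circRNA on each of the 12 arrays minus its mean over the 3 sham arrays (colour scale), antisense left and intergenic right, ordered by the difference at 24 h. All 20 antisense rows are red at 24 h. The 4 bottom rows on the right, blue at 24 h, are the intergenic circRNAs lower than sham, and the replicates of 5 min differ among themselves.

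The largest difference among antisense circRNAs was at Manf, the gene of a secreted factor of the endoplasmic reticulum stress response. mmu_circRNA_45047 (chr9:106889019-106889196, plus strand, 177 bases) had log2 intensities of 7.01, 6.93 and 6.85 on the sham arrays, 7.93, 7.12 and 7.27 on the 5-min arrays, 8.86, 9.65 and 8.08 on the 3-h arrays and 13.38, 13.47 and 10.70 on the 24-h arrays (replicates 1 to 3, as in all series of values below). All arrays of 24 h lay above all others, and those of 3 h above all of sham and 5 min. Its difference from sham was 0.51 at 5 min, 1.93 at 3 h and 5.59 (SE 0.63) at 24 h, the last a 48-fold higher intensity. Within slide 2 the mean of 24 h was 4.44 above replicate 3 of 3 h.

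Next stood a circle in Ptprb, which encodes a receptor-type tyrosine phosphatase of blood vessel lining cells. mmu_circRNA_22663 (chr10:116343842-116346937, minus strand, 3095 bases) read 7.52, 7.28 and 7.10 on the sham arrays, 9.57, 7.54 and 8.13 on the 5-min arrays, 10.19, 10.95 and 9.72 on the 3-h arrays and 12.80, 12.59 and 11.41 on the 24-h arrays. The groups of 3 h and 24 h overlapped neither sham nor each other, while replicate 1 of 5 min stood well above its 2 partners. The difference from sham was 1.11, 2.99 and 4.97 (SE 0.52), and the slide 2 value was 2.55. Another circRNA of Ptprb is in the list, the exonic mmu_circRNA_22664 of the plus strand. It read 6.88, 6.52 and 6.05 on the sham arrays, 6.55, 7.25 and 7.06 on the 5-min arrays, 7.26, 7.44 and 6.44 on the 3-h arrays and 9.93, 8.58 and 7.35 on the 24-h arrays. Its arrays of 3 h overlapped those of 5 min, and at 24 h its difference from sham was 2.14 against 4.97 for the antisense circle.

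The third was at Dstn, the gene of destrin, an actin-depolymerising protein. mmu_circRNA_010498 (chr2:143938457-143938574, minus strand) spans 117 bases and read 9.57, 9.96 and 10.19 on the sham arrays, 12.33, 9.15 and 10.61 on the 5-min arrays, 13.20, 13.56 and 12.90 on the 3-h arrays and 14.59, 14.47 and 14.15 on the 24-h arrays. Both later groups lay far above sham, and the 3 arrays of 5 min were spread over more than 3 log2 units on either side of it. Its difference from sham was 0.79, 3.32 and 4.50 (SE 0.58), that of 3 h being the largest among antisense circRNAs at that time. Its slide 2 value was 1.51.

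The other antisense circRNAs listed at both 3 h and 24 h were those in Col19a1, Kansl1, Ugt2b34, Tmem205 and at Gm30363. mmu_circRNA_19780 in the collagen gene Col19a1 (chr1:24383303-24390303, plus strand, 7000 bases) read 4.74, 4.59 and 4.46 on the sham arrays, 6.04, 4.96 and 5.29 on the 5-min arrays, 6.83, 7.37 and 7.32 on the 3-h arrays and 8.68, 8.73 and 8.13 on the 24-h arrays. Its groups of sham, 5 min, 3 h and 24 h followed each other without overlap, and the difference at 24 h was 3.91 (SE 0.31), with 1.20 on slide 2. mmu_circRNA_38907 in Ugt2b34, a gene of the glucuronosyltransferases that conjugate steroids and drugs (chr5:86891227-86905024, plus strand, 13797 bases), read 12.53, 12.30 and 12.28 on the sham arrays, 14.00, 12.89 and 13.35 on the 5-min arrays, 14.40, 14.62 and 14.22 on the 3-h arrays and 14.76, 14.68 and 14.59 on the 24-h arrays. It was above all sham arrays from 5 min on. The mean difference at 24 h was 2.31 and the slide 2 value 0.46.

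mmu_circRNA_43833 in Tmem205, a membrane protein gene (chr9:21923439-21923863, plus strand, 424 bases), read 7.01, 6.69 and 6.59 on the sham arrays, 7.96, 6.72 and 7.09 on the 5-min arrays, 9.33, 9.90 and 8.30 on the 3-h arrays and 9.91, 9.51 and 8.80 on the 24-h arrays. Its arrays of 3 h and 24 h interleaved, and both groups lay above sham and 5 min. Replicate 3 of 3 h, the one on slide 2, differed by -1.32 from the mean of the other 2, and the slide 2 value was 1.11 where the difference from sham was 2.65.

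In Kansl1, which encodes a subunit of a histone acetyltransferase complex, an antisense circle was higher and 2 circles of the gene's own strand were lower at 24 h. mmu_circRNA_24243 (chr11:104456946-104459039, plus strand, 2093 bases; the list gives it no gene) read 9.77, 9.83 and 9.93 on the sham arrays, 10.43, 9.41 and 9.75 on the 5-min arrays, 12.24, 12.52 and 11.22 on the 3-h arrays and 12.91, 12.55 and 11.74 on the 24-h arrays. The list holds 2 Kansl1 circRNAs of the minus strand, whose ends differ by 1 base. The exonic mmu_circRNA_006502 read 11.48, 11.56 and 11.55 on the sham arrays, 11.12, 11.94 and 11.65 on the 5-min arrays, 10.90, 10.83 and 10.05 on the 3-h arrays and 8.76, 8.68 and 9.07 on the 24-h arrays, and the sense-overlapping mmu_circRNA_19044 read 12.08, 12.14 and 12.15 on the sham arrays, 11.57, 12.51 and 12.26 on the 5-min arrays, 11.45, 11.35 and 10.79 on the 3-h arrays and 9.65, 9.52 and 9.72 on the 24-h arrays. In both of these every array of 24 h was below every array of the other groups, with differences from sham of -2.70 and -2.49 at 24 h, against 2.56 for the antisense circle (slide 2 value 1.19). All 3 were listed for these differences, so their contrast is a description.

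mmu_circRNA_27181 (chr14:21476670-21483639, minus strand, 6969 bases) is typed antisense and listed with Gm30363 and the histone acetyltransferase gene Kat6b. It lies on the strand of the noncoding gene Gm30363 and begins 19 bases before that gene's annotated start site, while Kat6b lies 15577 bases away. The sequence around that start is shown because the circle's 5′ end falls in it (RefSeq, GRCm38.p6, chr14:21483571-21483870, minus strand, the 69 bases of the circle in capitals).
Gm30363 start window: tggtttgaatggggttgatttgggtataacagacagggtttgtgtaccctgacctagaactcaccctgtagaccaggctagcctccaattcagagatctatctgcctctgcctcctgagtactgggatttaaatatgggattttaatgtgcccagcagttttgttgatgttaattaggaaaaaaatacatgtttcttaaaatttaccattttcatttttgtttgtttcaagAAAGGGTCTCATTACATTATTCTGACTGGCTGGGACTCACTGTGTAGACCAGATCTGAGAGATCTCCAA
The circle's first base follows the letters AG, the end of a splice acceptor, after a stretch rich in T. AG occurs somewhere in 32847 of 32851 such windows of 300 bases, so its presence carries nothing beyond its place. The circRNA read 11.34, 10.68 and 10.39 on the sham arrays, 12.60, 10.89 and 11.40 on the 5-min arrays, 13.24, 13.59 and 12.23 on the 3-h arrays and 13.36, 13.10 and 12.55 on the 24-h arrays. Both later groups lay above sham, with 24 h no higher than 3 h over all arrays (-0.02) and 0.78 higher within slide 2.

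The short antisense circles also include one at the imprinted Dlk1-Dio3 region. mmu_circRNA_000113 (chr12:109603917-109603990, minus strand, 73 bases) crosses the start of Rian, a maternally expressed noncoding RNA, on the opposite strand. It also lies inside the annotated extent of Rtl1, a retrotransposon-derived gene of paternal expression. The annotation used here gave no strand for Rtl1, so whether the circle is sense or antisense to Rtl1 could not be read. Both ends of the circle could be read, so its junction is printed, 5′ to 3′ on the circle's strand, with the circle's bases in capitals in the first pair and the bases after the junction in capitals in the last (RefSeq window, GRCm38.p6).
mmu_circRNA_000113 5′ end: gcagGGCTCCCTCAGGAATCACCAGCCCCC
mmu_circRNA_000113 3′ end: AAATGAAGAGTTCCAgttagttccattctg
mmu_circRNA_000113 junction: aaatgaagagttccaGGCTCCCTCAGGAAT
The circle is preceded by AG and followed by GT, the letters of a splice acceptor and donor, when the list's start is counted from 0. Spans here are end minus start on that basis, which could be checked on this 1 circle alone. It read 7.72, 7.42 and 7.34 on the sham arrays, 9.28, 7.42 and 8.21 on the 5-min arrays, 8.59, 8.97 and 8.80 on the 3-h arrays and 9.16, 9.71 and 9.76 on the 24-h arrays. The group of 24 h lay above all of sham and 3 h, whereas replicate 1 of 5 min reached into the range of 24 h, and the difference of 2.05 at 24 h was 2.03 with slide as a term, with 0.74 on slide 2.

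mmu_circRNA_009923 in Auts2 (chr5:132226987-132227061, plus strand, 74 bases), a gene of a nuclear protein of neuronal development, read 5.94, 5.20 and 4.69 on the sham arrays, 6.25, 5.90 and 6.32 on the 5-min arrays, 7.08, 7.64 and 6.26 on the 3-h arrays and 11.02, 9.85 and 7.59 on the 24-h arrays. The arrays of 24 h were spread over more than 3 log2 units, and the lowest of them fell just below the highest array of 3 h. The difference from sham was 4.21 (SE 0.67) at 24 h, and 3.22 was found on slide 2. mmu_circRNA_018441 in BC055324 (chr1:163992593-163992680, plus strand, 87 bases) read 4.74, 4.65 and 5.05 on the sham arrays, 6.19, 4.77 and 5.41 on the 5-min arrays, 5.95, 6.49 and 6.72 on the 3-h arrays and 9.44, 9.02 and 8.09 on the 24-h arrays. Its groups of 3 h and 24 h did not overlap, with 4.03 at 24 h and 2.13 on slide 2.

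The other short antisense circles were those in Tubb5, a beta-tubulin gene, and Trim21, the gene of a cytosolic antibody receptor and ubiquitin ligase. mmu_circRNA_016773 in Tubb5 (chr17:35834970-35835050, plus strand, 80 bases) read 12.78, 12.70 and 12.86 on the sham arrays, 14.02, 13.17 and 13.56 on the 5-min arrays, 14.77, 14.95 and 14.39 on the 3-h arrays and 15.18, 15.16 and 15.16 on the 24-h arrays. The 4 groups followed each other in order of time without overlap, with a difference of 2.39 (SE 0.27) at 24 h and 0.78 on slide 2. mmu_circRNA_19469 in Trim21 (chr7:102563267-102563363, plus strand, 96 bases) read 11.61, 11.26 and 11.35 on the sham arrays, 12.24, 10.90 and 11.45 on the 5-min arrays, 12.95, 13.07 and 12.85 on the 3-h arrays and 13.35, 13.43 and 13.74 on the 24-h arrays. Its arrays of 5 min overlapped sham, and those of 3 h and 24 h lay above both without overlap. At 24 h it was 2.10 above sham, and its slide 2 value was 0.66.

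The remaining 7 antisense circRNAs lie in Nme1 (mmu_circRNA_016119), a nucleoside diphosphate kinase gene, at Olfr486 and Gm39066 (mmu_circRNA_19472), over 1700023F02Rik and 4930407I19Rik (mmu_circRNA_22146), in ccdc198 (mmu_circRNA_27543), in Cacng2 (mmu_circRNA_28801), which encodes a subunit of AMPA receptor complexes, in Cntnap5c (mmu_circRNA_30683) and in Lrig2 (mmu_circRNA_35932). Their sham means ran from 4.83 to 8.58 and their differences at 24 h from 2.11 to 2.87, with slide 2 values from 0.95 to 2.21. All 7 had their 3 arrays of 24 h above all sham arrays. The circle in Lrig2 differed from the rest in timing, with -0.02 at 5 min, 0.23 at 3 h and 2.87 at 24 h.

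Among intergenic circRNAs the largest difference belonged to mmu_circRNA_31169 (chr17:94694281-94695119, minus strand, 838 bases), outside any gene and 27471 bases from Mettl4, a methyltransferase gene. It read 6.00, 6.21 and 6.55 on the sham arrays, 6.78, 5.27 and 5.85 on the 5-min arrays, 7.17, 8.08 and 7.31 on the 3-h arrays and 12.95, 12.98 and 10.40 on the 24-h arrays. Arrays of 24 h stood above all others, by more than 2 log2 units even for the lowest of them. The difference from sham was -0.29 at 5 min, 1.26 at 3 h and 5.85 (SE 0.61) at 24 h, a 57.8-fold higher intensity, and 4.80 separated 24 h from replicate 3 of 3 h on slide 2.

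mmu_circRNA_30586 (chr17:50711410-50718783, plus strand, 7373 bases), 14341 bases from Tbc1d5, had the largest difference of all 40 at 3 h (3.71). It read 8.15, 7.75 and 7.43 on the sham arrays, 10.22, 7.76 and 8.89 on the 5-min arrays, 11.82, 12.17 and 10.46 on the 3-h arrays and 13.24, 12.70 and 10.65 on the 24-h arrays. On slide 2 replicate 3 of 3 h and replicate 3 of 24 h were alike, and the other 2 arrays of 24 h were higher. Within slide 1, replicates 1 and 2 of 3 h were 4.22 above sham. At 24 h the difference was 4.42, and 1.74 on slide 2. mmu_circRNA_19314 (chr4:3080977-3084320, minus strand, 3343 bases), with a vomeronasal receptor pseudogene as its nearest gene, read 9.22, 8.80 and 8.69 on the sham arrays, 9.93, 7.46 and 8.79 on the 5-min arrays, 11.57, 11.73 and 11.83 on the 3-h arrays and 13.06, 13.24 and 13.07 on the 24-h arrays. Here 3 h and 24 h did not overlap, and replicate 2 of 5 min was below sham. The 24-h difference was 4.22, with 1.30 on slide 2.

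One intergenic circle lies between the serum amyloid A genes Saa1 and Saa2, which encode acute-phase proteins of the liver. mmu_circRNA_41378 (chr7:46743993-46750514, minus strand, 6521 bases) is 812 bases from Saa1 and 1319 from Saa2. It read 8.05, 7.91 and 8.11 on the sham arrays, 9.64, 7.92 and 8.53 on the 5-min arrays, 10.57, 10.92 and 10.14 on the 3-h arrays and 11.81, 12.00 and 11.40 on the 24-h arrays. The arrays of 3 h lay above all of sham and 5 min, and those of 24 h above all of 3 h. The difference from sham was 0.67, 2.52 and 3.72 (SE 0.40), the slide 2 value was 1.60, and the Saa1 and Saa2 mRNAs were not measured.

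The other intergenic circRNAs listed at 3 h and 24 h were in Wdr49 and over Gm42260. mmu_circRNA_35606 in Wdr49 (chr3:75298105-75339532, minus strand, 41427 bases) read 9.49, 8.58 and 8.15 on the sham arrays, 10.55, 9.45 and 9.85 on the 5-min arrays, 11.36, 11.70 and 11.21 on the 3-h arrays and 12.57, 12.10 and 11.44 on the 24-h arrays. Its 3 h and 24 h arrays overlapped and were above sham, and the difference of 3.30 at 24 h stood beside 0.83 on slide 2. mmu_circRNA_36544 (chr4:22025119-22040595, plus strand, 15476 bases) read 5.12, 5.20 and 5.52 on the sham arrays, 6.94, 5.32 and 5.88 on the 5-min arrays, 7.54, 8.12 and 7.76 on the 3-h arrays and 10.13, 8.94 and 7.96 on the 24-h arrays. The difference at 24 h was 3.72 (SE 0.50) and the slide 2 value 1.25, with more than 2 log2 units between the highest and the lowest of its 24 h arrays. mmu_circRNA_24895 (chr12:32874945-32875233, minus strand), with 288 bases the shortest intergenic circle, lies 21576 bases from Nampt, a gene of NAD synthesis. It read 10.05, 9.53 and 9.20 on the sham arrays, 11.08, 9.91 and 10.40 on the 5-min arrays, 10.92, 11.23 and 11.04 on the 3-h arrays and 12.23, 12.33 and 11.88 on the 24-h arrays. Its group of 24 h lay above all others, 2.56 above sham and 1.11 on slide 2.

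Only 4 members, all typed intergenic, were lower than sham at 24 h, and 3 of them lie in or over a gene of their strand. mmu_circRNA_26316 (chr13:49820612-49830616, plus strand, 10004 bases) in Gm272 was the one member listed at all 3 times. It read 11.18, 10.45 and 10.22 on the sham arrays, 6.57, 9.05 and 8.63 on the 5-min arrays, 9.16, 8.45 and 7.95 on the 3-h arrays and 7.76, 8.13 and 7.94 on the 24-h arrays. Every MCAO array was below every sham array, the lowest being replicate 1 of 5 min. The difference was -2.53 (SE 0.55) at 5 min, -2.10 (SE 0.55) at 3 h and -2.67 (SE 0.55) at 24 h. In the 4-group fit used here the differences at 5 min and 24 h passed at an adjusted p of 0.05 (limma with Benjamini-Hochberg). These differences listed the circle, so their passing restates the choice of members. The difference at 3 h did not pass, with an adjusted p of 0.0503, nor did it with slide as a term (0.134, limma with Benjamini-Hochberg).

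Another circle of the same gene was on the other side of sham at 24 h. mmu_circRNA_26317 (chr13:49828935-49830616, plus strand) shares its end position with mmu_circRNA_26316 and starts inside it, so that it spans 1681 of the same bases. It read 7.36, 7.12 and 6.87 on the sham arrays, 6.99, 7.36 and 7.41 on the 5-min arrays, 7.27, 7.35 and 7.27 on the 3-h arrays and 11.59, 9.90 and 8.03 on the 24-h arrays. It was level from sham to 3 h and higher at 24 h, where the 3 arrays were spread over more than 3 log2 units. At 24 h the 2 circles thus differed from sham by 2.72 and -2.67. Both of these 24-h differences passed the threshold in the 4-group fit, which restates the choice, since both circles were listed for them. Neither passed with slide as a term, where they were 2.77 and -1.82. The slide 2 values were 2.57 and -0.01.

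mmu_circRNA_29750 in Gramd1c (chr16:44028678-44040158, minus strand, 11480 bases) was listed at 5 min. It read 6.88, 7.94 and 8.28 on the sham arrays, 5.69, 5.02 and 5.32 on the 5-min arrays, 6.48, 5.91 and 6.66 on the 3-h arrays and 6.13, 7.11 and 7.14 on the 24-h arrays. All arrays of 5 min were below all of the other groups, and those of 24 h overlapped sham. Its difference was -2.35 (SE 0.40) at 5 min, -1.35 at 3 h and -0.90 at 24 h. Its slide 2 value was 0.14. The exonic mmu_circRNA_29747 of the same gene and strand, which does not overlap it, was listed at 5 min too and read 8.29, 7.90 and 7.87 on the sham arrays, 5.52, 5.61 and 5.80 on the 5-min arrays, 7.53, 7.52 and 7.02 on the 3-h arrays and 6.89, 7.70 and 7.58 on the 24-h arrays. Both circles of Gramd1c were thus lowest at 5 min, with -2.38 for the exonic one.

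**Figure D4:**
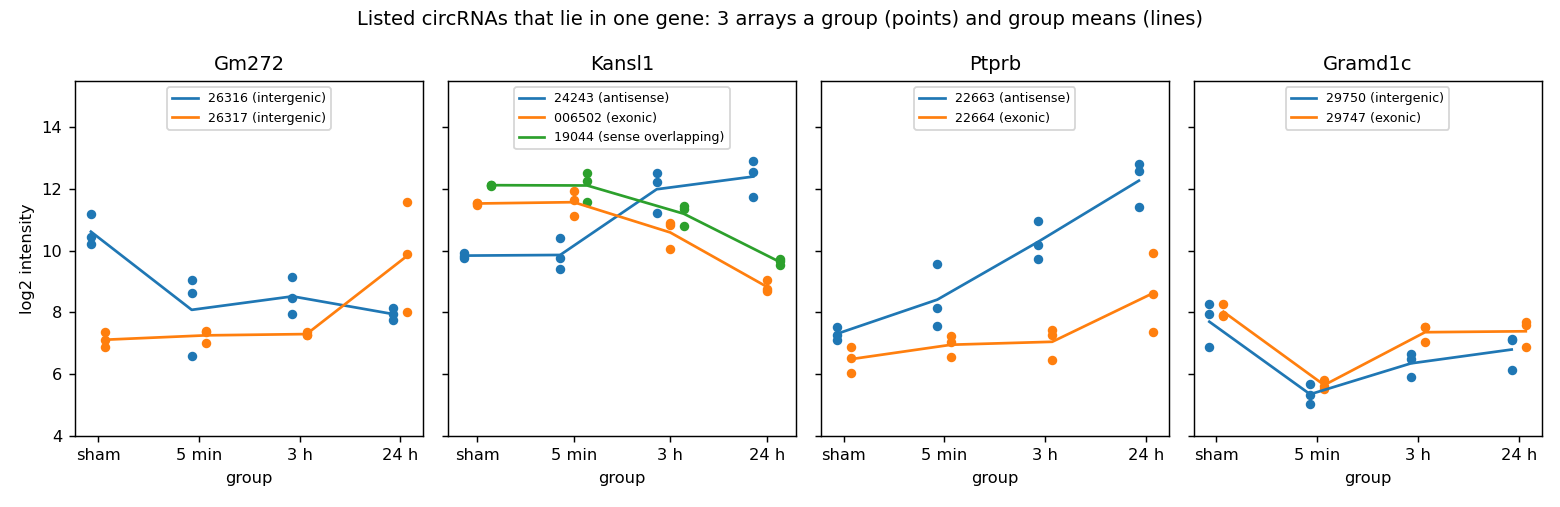
Log2 intensity of listed circRNAs that share a gene, for Gm272, Kansl1, Ptprb and Gramd1c. Points are arrays (3 in each group) and lines join group means. At 24 h the circles of Gm272 and of Kansl1 stand on opposite sides of sham, with mmu_circRNA_26316 of Gm272 lower from 5 min on. In Ptprb both are higher at 24 h, and in Gramd1c both dip at 5 min.

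The last lower pair was mmu_circRNA_43751 and mmu_circRNA_32099. mmu_circRNA_43751 (chr9:9583050-9634385, minus strand, 51335 bases) runs over Gm46102 and the end of Cntn5, a gene of a neuronal adhesion protein. It read 12.17, 11.30 and 10.80 on the sham arrays, 10.46, 12.33 and 11.92 on the 5-min arrays, 10.91, 10.66 and 9.34 on the 3-h arrays and 9.26, 8.71 and 8.40 on the 24-h arrays. mmu_circRNA_32099, outside any gene on chromosome 18 with Cbln2 as its nearest coding gene, read 10.36, 9.96 and 9.67 on the sham arrays, 8.54, 10.36 and 10.09 on the 5-min arrays, 9.32, 9.36 and 7.80 on the 3-h arrays and 7.80, 7.86 and 7.49 on the 24-h arrays. In both, replicate 3 of 3 h on slide 2 was lower than its partners on slide 1 (differences of -1.44 and -1.54), and the mean of 24 h differed from it by -0.55 and -0.09. Their differences from sham at 24 h, -2.63 and -2.28, were -1.19 and -0.75 with slide as a term.

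The 9 further intergenic circRNAs were all higher than sham at 24 h, by 1.06 to 4.14, with slide 2 values from 0.21 to 3.06. They are mmu_circRNA_26317 above, mmu_circRNA_24679 in Gm33037, mmu_circRNA_34199 at Gm30319, mmu_circRNA_35656 in the cadherin gene Dchs2, mmu_circRNA_43806 in the mucin gene Muc16, mmu_circRNA_44100 at Gm31698, and mmu_circRNA_32778, mmu_circRNA_38639 and mmu_circRNA_40444 outside genes, with Vti1a, Arap2 and Lrrtm4 as nearest coding genes. For mmu_circRNA_40444 no array of 5 min was well above background, and the mean of 24 h was 10.6-fold that of 5 min (8.31 and 4.91). With the level at 5 min uncertain, so is this fold. mmu_circRNA_38639 was the exception in timing in the 4-group fit, with 2.01 at 3 h and 1.06 at 24 h. With slide as a term these were 2.60 and 2.81, and its slide 2 value was 0.21. Its replicate 3 of 3 h differed by -1.75 from the mean of its other 2 arrays of 3 h.

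Contrasts between the MCAO groups were tested with limma over all probes, with Benjamini-Hochberg adjustment. From 5 min to 3 h, 8 of the 40 circRNAs passed, all of them higher at 3 h, where 2.08% of all probes tested passed and 1.27% were higher. From 3 h to 24 h 15 passed, all of them higher at 24 h (4.65% of all probes, 2.44% higher). From 5 min to 24 h 37 passed (30.1% of all probes), 35 of them higher (11.7%) and 2 lower (18.3%). The arrays of 3 h and 24 h in these contrasts also chose the members, so the counts lean the way of the choice and are not independent of it. The first 2 counts also rested on single arrays. None of the 40 passed from 5 min to 3 h without any one of sham replicate 2, replicates 2 and 3 of 5 min and replicates 1 and 2 of 3 h, and none passed from 3 h to 24 h without replicate 1 of 3 h or replicate 2 of 24 h, while 14 to 20 and 23 to 24 then had an unadjusted p under 0.05. With slide as a fixed term the 3 counts were 7, 0 and 12 (limma, with 24 at an unadjusted p under 0.05 for the 0).

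The 25 circRNAs listed at 24 h alone were looked at from 5 min to 3 h as well. This contrast did not list them, but they are also those that were not listed at 5 min or 3 h, and the 4-group fit gives a probe the same SE in each contrast, so that passing at 24 h favoured small SEs here. Their values are therefore not independent of the choice of members. Of the 25, 1 passed (limma, Benjamini-Hochberg), the Trim21 circle mmu_circRNA_19469, with a difference of 1.42 (SE 0.33), and 7 had an unadjusted p under 0.05. The Trim21 circle passed in 14 of 27 other settings, and none of the 25 passed in 7 of the 12 fits that left out 1 array. The share of 1 in 25 stands beside 2.08% of all probes and 3.96% of the 556 other circRNAs listed at 24 h alone. Higher at 3 h than at 5 min were 22 of the 25, with a median difference of 0.47 (0.46 with slide as a term). Of all probes 43.2% were higher, with a median of -0.11, and of the other circRNAs listed at 24 h alone 53.6%, with a median of 0.09. These sets differ in direction, since 23 of the 25 but 284 of the 556 others (51.1%) were higher than sham at 24 h. The shares are therefore not like for like, and no trait particular to the 25 can be read from them. Over the whole list the medians were 0.62 for exonic, 0.54 for intronic and 0.92 for sense-overlapping circRNAs.

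Values within each slide were taken from arrays that also chose the members, so they describe the members and are not an independent check of the slide. On slide 1, replicates 1 and 2 of 3 h were above sham for 36 of the 40, with a median of 1.46, where the median was 0.67 for the other listed circRNAs and -0.08 for all probes. On slide 2, 24 h was above replicate 3 of 3 h for 37 of the 40, with a median of 1.27 against 0.32 for the other listed circRNAs and 0.02 for all probes. Slide 2 has a single array of 3 h, so this is a difference without a replicate on one side. Over both slides 36 of the 40 but 54.4% of the other listed circRNAs were higher than sham at 24 h. The medians within each slide therefore also differ through the direction of listing. With slide as a fixed term all 40 kept the sign of their difference from sham at 3 h and 24 h. Sham and 5 min lay on slide 1, so the term could not change the differences at 5 min. At 3 h the difference with the term was that within slide 1. At 24 h it rested on replicate 3 of 3 h as the only link between the slides. With the term 30 passed at 24 h in place of 38. Of the 30, 29 were called in both fits, and mmu_circRNA_38639 passed only with the term. The 9 that no longer passed were the circles at Rian (mmu_circRNA_000113), Nme1, 1700023F02Rik and Lrig2 and, among intergenic ones, both of Gm272, that of Muc16, mmu_circRNA_32099 and mmu_circRNA_43751.

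**Figure D5:**
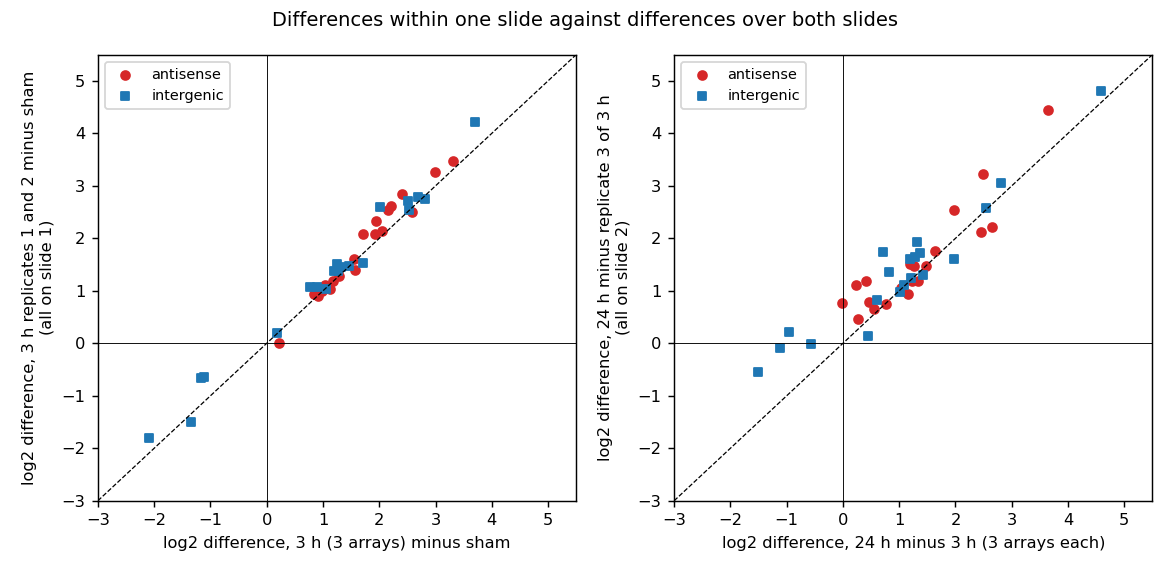
Log2 differences over both slides (horizontal) against the same differences within a slide (vertical), 3 h minus sham on slide 1 (left) and 24 h minus 3 h on slide 2 (right), with antisense circRNAs as circles, intergenic ones as squares and a dashed line of equality. On slide 1, 36 of 40 points lie above 0, and on slide 2, 37 of 40.

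The 40 circRNAs leaned the same way between replicates of a group, and the other listed circRNAs did so as well. At 5 min replicate 1 was the highest of the 3 arrays for 33 of the 40 (82.5%), for 70.2% of the other listed circRNAs and for 44.2% of all probes tested. Replicate 2 of 5 min was the lowest for 32 (80.0%, 65.8% of the other listed). At 3 h replicate 2 was the highest for 32 (80.0%, against 51.0% and 41.3%), and at 24 h replicate 3 was the lowest for 31 (77.5%, against 60.0% and 33.0%). The median SD between arrays of 5 min was 0.57 for the 40, 0.52 for the other listed circRNAs and 0.28 for all probes, and in sham it was 0.22, 0.29 and 0.28. Replicate 1 of 5 min was the dimmest array before normalization, with a median raw intensity of 50 over all circRNA probes, and its part in these values was not tested.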

How the data were processed

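The 40 circRNAs and the lists used here were chosen with earlier results of these data known. For each of the 12 arrays the authors deposited spot intensities as read by Agilent Feature Extraction 11.0.1.1 (version per the submitters' processing notes), with flags for outliers and for signal well above background (other columns, as deposited). The authors also deposited a series-wide table of quantile-normalized log2 values, used as an alternative. Depth is not counted on arrays, and 3 arrays in a group limit the precision.

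In R 4.3.3 with limma 3.58.1, normexp with offset 0 was run on the median pixel intensity and local background of each spot, followed by quantile normalization of the 15712 spots and log2. Flagged outlier spots were set to missing. Tests were limited to the 10678 of 14236 circRNA probes that exceeded the negative controls (1.1 times their 95th percentile) on each of the 12 arrays. All 4 groups entered 1 limma fit with a mean-variance trend, two-sided tests and Benjamini-Hochberg adjustment over all probes tested in each contrast (adjusted p of at most 0.05). An SE is limma's moderated one, on 8 residual and 5.05 prior degrees of freedom. The samples are labelled replicates, and the p-values measure the spread between them. The fit was tested on simulated data.

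Each of 903 listed circRNAs was matched to 1 probe by equal mean and differences (largest deviation 0.000499, next probe at least 0.008 away). Types, symbols and mm10 coordinates come from the study's list, read from page images of which both copies were identical. Genes, and the strand of genes with a promoter window, come from RefSeq tables of GRCm38.p6 (49997 genes, 27025 with a strand).

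Every member was named once. Values by array were given for those listed at 5 min, at both 3 h and 24 h, or lower than sham, the 3 of each type with the largest difference at 24 h, and those of at most 300 bases (24 of 40), the rest by ranges. Alternatives changed 1 choice at a time: background correction, scaling, starting values, filter, groups fitted, variance model, array weights, slide, a replicate block, and leaving out each array.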

Additional observations from a re-analysis of the deposited data

Results flagged for a closer look

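Of the 25 antisense and intergenic circRNAs listed at 24 h alone, only the Trim21 antisense circle mmu_circRNA_19469 differed between 5 min and 3 h by a direct test. It was 1.42 log2 units higher at 3 h than at 5 min (SE 0.33), with an adjusted p of 0.0469 by limma and Benjamini-Hochberg and with all 3 arrays of 3 h above all 3 of 5 min. Of the 556 other circRNAs listed at 24 h alone, 22 (3.96%) passed the same contrast. The Trim21 call held in 14 of 27 other settings, with adjusted p from 4.8e-07 to 0.202 (limma, Benjamini-Hochberg). None of the 25 passed in 7 of the 12 fits that left out 1 array. Left out in turn were replicates 2 and 3 of sham and 5 min, 1 and 2 of 3 h, and 2 of 24 h. The contrast is not independent of how the circRNA was chosen, since those listed at 5 min or 3 h were set apart and the fit gives each probe 1 SE for all contrasts.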

How the results depend on the processing

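No difference from sham that passed the threshold changed sign in any of 27 other settings, and each single member kept its sign at 3 h and 24 h. At 5 min 9 members changed sign in some setting, in 22 of 1077 values. From 5 min to 3 h, where 8 members passed, there were 5 with the processed signal over its 75th percentile, 3 without a filter or with the limit on at least 3 arrays, 0 when only those groups were fitted (22 at an unadjusted p under 0.05), 33 with array weights and 0 to 14 on leaving out an array. From 3 h to 24 h, with 15, there were 8 with cyclic loess or with slide as a random block, 0 with only those groups or with slide as a fixed term (26 and 24 at an unadjusted p under 0.05), 35 with array weights and 0 to 19 on leaving out an array. From 5 min to 24 h, with 37, there were 12 with slide as a fixed term and 31 to 38 on leaving out an array. The 1 member listed at 24 h alone that passed from 5 min to 3 h became 2 without background subtraction, with offset 50, cyclic loess, the deposited log2 table, signal well above background on all arrays, no trend or slide as a random block, 0 with the processed signal, without a filter, with the limit on 3 arrays or with only those groups (5, 7, 7 and 8 at an unadjusted p under 0.05), 19 with array weights, and 0 to 2 on leaving out an array.

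The median difference from sham of the antisense circRNAs at 3 h was 1.24 with offset 50 and 2.02 with the processed signal, against 1.64. At 24 h it was 2.89 with the processed signal and 2.87 with slide as a fixed term, against 2.51, and at 5 min it ran from 0.32 to 1.00 on leaving out an array. The intergenic median at 24 h was 2.94 with slide as a fixed term, against 2.56. The cause of these shifts was not tested. With a replicate block 10, 15 and 37 members passed in the 3 contrasts and 1 in the count of those listed at 24 h alone. Same-numbered arrays did not deviate together (r from -0.52 to 0.46, median 0.01, over 18 pairs, and from -0.54 to 0.55 over 36 other pairs), so the numbers do not pair the samples. Signal over background limits what can be said of mmu_circRNA_40444 in sham and at 5 min.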
